A study of Rattus norvegicus with 20 samples.

Results

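Hox genes were measured by bulk RNA sequencing of dorsal root ganglia (DRG), the clusters of sensory neuron bodies beside the spinal cord. Members were chosen by name: a protein-coding gene whose symbol is Hox, a cluster letter from a to d, and a number. This gave 30 genes of the 39747 in the files, with 3 in the Hoxa cluster, 10 in Hoxb, 9 in Hoxc, and 8 in Hoxd. Another 8 Hox genes were listed under provisional symbols or as a non-coding type and are described apart. Among these are most genes of the Hoxa cluster from its middle to its posterior end.

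Hox genes encode homeodomain transcription factors that stand in a fixed order in clusters, and genes at like positions in different clusters share a paralogue number. In the embryo, genes of low number are switched on from the hindbrain and neck backwards, and genes of high number are limited to the lumbar, sacral, and tail segments. Neurons, glia, and connective tissue cells keep part of this pattern after birth, so the set of Hox genes in a tissue reflects the segment it came from.

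The study tested whether dietary omega-3 fatty acids alter the response to nerve injury. Female wild-type Sprague-Dawley rats ate a soy oil control diet on an AIN-93G base (SOD) or a fish oil-enriched diet (FOD) for 4 weeks. The left sciatic nerve was then tied with loose chromic gut (chronic constriction injury, CCI) or only exposed (control or sham, CT), and the study's account places collection of the DRG 1 week later, whereas its methods and the series' design continue the diets for 4 weeks after surgery. Left DRG of 14 rats were sequenced, 4 of the SOD-CT group and 3 of SOD-CCI on soy oil, and 3 of FOD-CT and 4 of FOD-CCI on fish oil. Right DRG of 6 of the injured rats, 3 on each diet, were sequenced as the contralateral groups SOD-CCI-contra and FOD-CCI-contra, which made 20 libraries. Neither the labels nor the methods name the spinal segments of the ganglia or say how many were pooled.

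Libraries held 22547190 to 54437581 counts. In 3 libraries, FOD-CT replicate 1, FOD-CCI replicate 1, and FOD-CCI-contra replicate 1, 7 markers of spinal cord glia summed to 2359 to 3766 CPM (counts divided by the summed counts of the library, times 1e6), against 2.59 to 65.7 CPM in the other 17. These 3 libraries, of which the latter pair came from the left and right side of the same rat, are called the cord-marked libraries. All 7 glial markers and 8 of 9 spinal cord neuron markers were higher in each of the 3 than in any of the 17, where Lhx1, Lhx5, and Mnx1 had 0 counts. The 10 sensory neuron markers were present in the 17 libraries at a summed 1971 to 7398 CPM and in the cord-marked libraries at 161 to 3058 CPM. Markers of skeletal muscle summed to 85345 CPM in SOD-CT replicate 1 and 18183 CPM in FOD-CT replicate 2, and to 6468 CPM or less in the other 15 of the 17.

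In the 17 libraries the Hoxd cluster had the largest median share of the summed Hox FPKM, at 43.6%, although in FOD-CCI replicate 2 Hoxb held 40.3% and Hoxd 36.5%. Levels are given as FPKM, deposited fragment counts divided by gene length and library size, which puts genes of different length on 1 scale. Hoxd8, a gene of the middle of the cluster, had the highest median of the 30 genes at 14.7 FPKM, with a lowest value of 10.2 and a highest of 21.8. It was also among the least variable, with a coefficient of variation of 20.4% over the 17 libraries. Hoxd1, an anterior gene that in mice shapes the wiring of pain-sensing neurons, had a median of 9.29 FPKM, between 2.83 and 16.5. Hoxd9, which helps to pattern the hindlimb level, lay between 4.54 and 14.3 with a median of 8.56 FPKM. Hoxd4, known from the hindbrain and neck, had a median of 2.98 FPKM and ran from 1.07 to 17.9. This was the largest coefficient of variation among the 19 members that reached 10 counts in 90% or more of the 17 libraries, at 91.3%.

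The upstream sequences of 3 Hoxd genes are shown because these genes span the range of behaviours described here: Hoxd8 is high everywhere, Hoxd4 varies most, and Hoxd10 is high in the cord-marked libraries. Each line holds the 250 bases before the gene's start in RefSeq on build GRCr8, on the plus strand, at chr3:80001697-80001946, chr3:80014973-80015222, and chr3:80021636-80021885 in this order. Capitals mark CG dinucleotides, the sites of DNA methylation and the letters that make up CpG islands.
Hoxd10: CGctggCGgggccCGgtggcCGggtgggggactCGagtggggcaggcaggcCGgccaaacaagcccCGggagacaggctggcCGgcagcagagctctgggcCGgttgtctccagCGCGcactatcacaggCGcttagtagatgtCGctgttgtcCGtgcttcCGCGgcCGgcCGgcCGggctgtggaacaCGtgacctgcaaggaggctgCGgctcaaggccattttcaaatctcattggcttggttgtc
Hoxd8: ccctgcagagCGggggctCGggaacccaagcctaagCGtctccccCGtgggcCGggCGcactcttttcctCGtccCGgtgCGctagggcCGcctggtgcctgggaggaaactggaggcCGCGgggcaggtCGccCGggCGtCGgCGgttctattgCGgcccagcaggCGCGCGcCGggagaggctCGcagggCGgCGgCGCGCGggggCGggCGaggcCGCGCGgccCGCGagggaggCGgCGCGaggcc
Hoxd4: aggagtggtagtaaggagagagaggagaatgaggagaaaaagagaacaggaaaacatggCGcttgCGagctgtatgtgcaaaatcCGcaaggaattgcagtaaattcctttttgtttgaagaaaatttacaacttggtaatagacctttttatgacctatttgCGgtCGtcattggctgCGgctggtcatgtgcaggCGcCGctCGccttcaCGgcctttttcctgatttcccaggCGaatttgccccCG
Hoxd10 held 21 CG dinucleotides, Hoxd8 held 38, and Hoxd4 held 12, against a median of 5 over the 33469 windows of this length in the table. Of the 30 members, 11 were matched by gene ID, and their windows held 3 to 38. The letters TTTATG, read on both strands, were found in 11.4% of all windows and among the 11 matched members in Hoxd4 alone. The letters TATAAA, read likewise, were found in 12.9% of all windows and among the matched members in Hoxd13 alone. A match of letters describes the window and does not mark a binding site.

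Among the 30 members, the Hoxb cluster came next, with a median share of 32% in the 17 libraries, and Hoxc followed at 22.3%. Most Hoxa genes are described apart and do not enter these shares. Hoxc9, a gene of trunk segments that in motor neurons marks the thoracic level, was the most abundant Hoxc gene, with a median of 7.62 FPKM between 4.89 and 23.3. Hoxc10, a gene of the lumbar level, had a median of 5.25 FPKM between 3.26 and 19. The ratio of Hoxc10 to Hoxc9 was therefore below 1 in most of the 17 libraries, with a median of 0.668 and a range of 0.439 to 1.09. In the Hoxb cluster, Hoxb8, which acts in spinal sensory circuits, had a median of 6.88 FPKM between 2.08 and 11.9. Hoxb7, its neighbour, had a median of 6.53 FPKM, and Hoxb9 was present at a median of 0.996 FPKM, between 0 and 3.2. Hoxb9 shares part of its gene model with Hoxb4 to Hoxb8, and 11 of the 30 gene models overlapped another listed gene, so reads could be split between them. Hoxa2 and Hoxa3 were low, with medians of 0.415 FPKM and 0.331 FPKM.

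**Figure D1:**
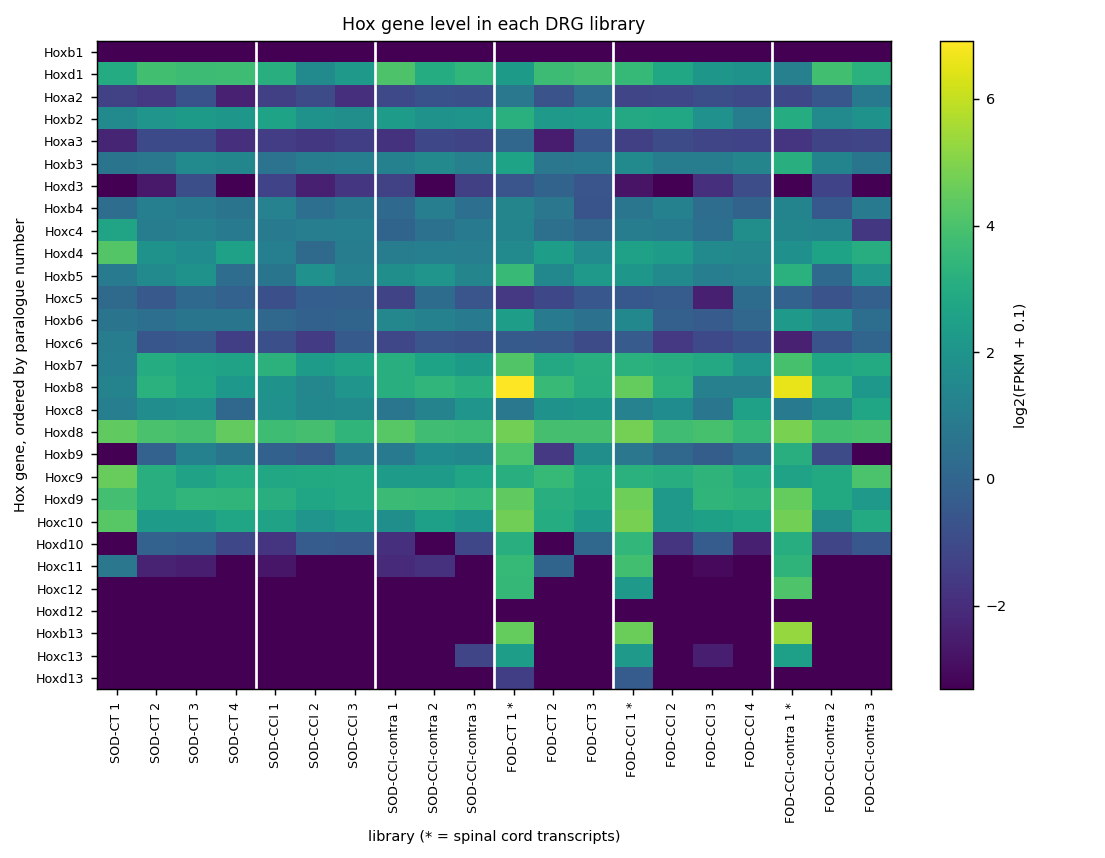
Level of the Hox genes described by name (rows, ordered by paralogue number) in each library (columns, by group), as log2(FPKM + 0.1). The rows of Hoxc11, Hoxc12, Hoxb13, and Hoxc13 are near 0 in most unmarked libraries and bright in the cord-marked libraries, which carry an asterisk. Hoxd12 is at 0 throughout, and Hoxd13 reaches at most 0.7 FPKM.

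Apart from Hoxc10, which was at 3.26 to 19 FPKM, the members numbered 10 to 13 were low or absent in the 17 libraries. None of Hoxc12, Hoxd12, Hoxb13, and Hoxd13 had a count in any of them. Hoxc11 reached 10 counts in 3 of the 17, with 43 in SOD-CT replicate 1, 56 in FOD-CT replicate 2, and 10 in SOD-CCI-contra replicate 2, and the first 2 are the libraries with the highest muscle markers. Hoxc13 reached 10 counts in 1 of the 17. Hoxd10, the Hoxd gene of the lumbar level, was at 0 to 0.962 FPKM with a median of 0.356. Hoxb1 and Hoxd12 had 0 counts in all 20 libraries, which allows up to 3 counts a library.

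The order of the clusters could be summarised as a mean paralogue number, weighted by FPKM. It lay between 6.09 and 7.09 in the 17 libraries, with a median of 6.52. Paralogue group 8 held 19.8% to 32% of the summed Hox FPKM of these libraries and group 9 held 16.8% to 29%. Group 10 held 3.63% to 14.7%, and groups 11 to 13 held at most 1.21%. The highest mean, 7.09, belonged to SOD-CT replicate 1, whose Hoxb share was 9.91% and whose Hoxc share was 42.5%, while the medians of the 17 libraries were 32% and 22.3%. The part of the muscle transcripts of that library in this profile was not tested.

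The weighted means of the groups were as follows. The 4 SOD-CT libraries had weighted means of 7.09, 6.30, 6.22, and 6.36. The 3 SOD-CCI libraries had 6.42, 6.91, and 6.84, and their contralateral DRG had 6.14, 6.68, and 6.52. The unmarked FOD-CT libraries had 6.53 and 6.23, the unmarked FOD-CCI libraries had 6.34, 7.04, and 7.01, and the unmarked FOD-CCI-contra libraries had 6.09 and 6.53. The ranges of SOD-CT and SOD-CCI, of FOD-CT and FOD-CCI, and of each injured group and its contralateral DRG overlap. Within a rat, however, the mean was higher on the injured left side in each of the 5 unmarked rats with both sides, by 0.28, 0.23, and 0.32 in SOD-CCI rats and by 0.25 and 0.52 in FOD-CCI rats. The share of groups 1 to 3 was lower on the left in all 5, with a left minus right difference between -5.59 and -3.03 percentage points, and the share of groups 10 to 13 was higher in all 5, by 0.224 to 3.9 percentage points. In the cord-marked rat the mean was 8.51 on the left and 8.69 on the right, the reverse order. These are values of a score over the members and were not tested. Hoxd1, a member of paralogue group 1, was lower on the left in the same 5 unmarked rats. Its left to right ratio of FPKM was 0.522, 0.349, and 0.434 in SOD-CCI rats and 0.485 and 0.446 in the unmarked FOD-CCI rats. The part of Hoxd1 in the side difference of the score was not tested. In each group that has a cord-marked library, that library had the highest mean. With the 8 Hox genes described apart included, the weighted mean stayed higher on the left in all 5 unmarked rats. The share of groups 10 to 13 was then lower on the left in FOD-CCI replicate 2, at 11.5% against 12.1%. It was higher on the left in FOD-CCI replicate 3, at 16.3% against 15.7%. In SOD-CCI replicates 1, 2, and 3 it was 15.2%, 14.7%, and 13.8% on the left against 15%, 13.9%, and 13.2%.

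**Figure D2:**
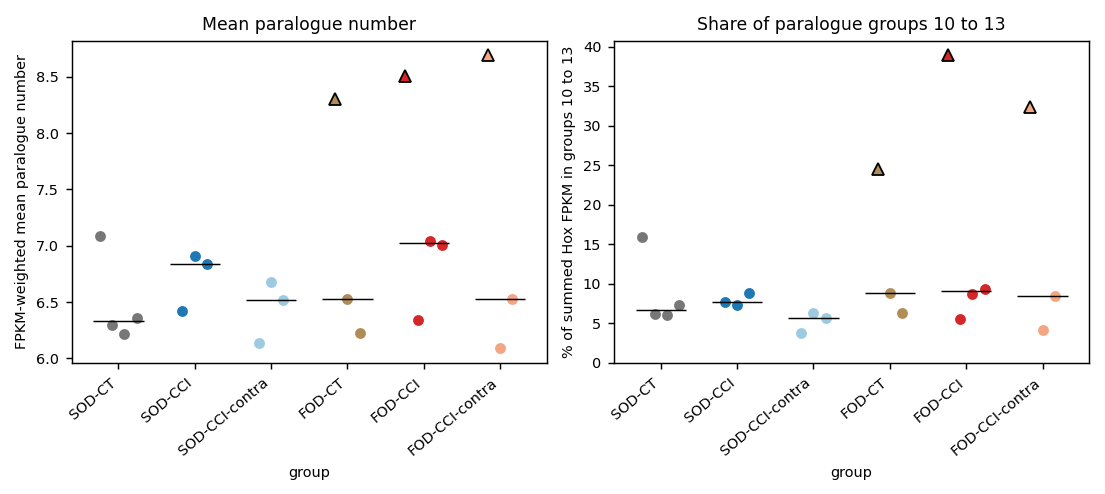
Left, FPKM-weighted mean paralogue number of each library; right, percent of the summed Hox FPKM in paralogue groups 10 to 13. Points are libraries, black-edged triangles are the cord-marked libraries, and lines are group medians; the triangles lie at 8.30 to 8.69 and 24.6% to 39%, above all circles.

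The cord-marked libraries had a more posterior and a larger Hox signal. Their weighted means were 8.30 in FOD-CT replicate 1, 8.69 in FOD-CCI-contra replicate 1, and 8.51 in FOD-CCI replicate 1. Their summed Hox FPKM was 346, 328, and 225 in the same order, while the 17 others lay between 63 and 130. Groups 10 to 13 held 24.6%, 32.4%, and 39% of it, against 3.77% to 15.9%. The ratio of Hoxc10 to Hoxc9 was 3.07, 4.45, and 3.06, each above the highest value of the 17. These 3 libraries were set apart by their transcripts and not by a label, so the values are a description with no test.

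Of the 19 members with at least 10 counts in 90% or more of the 17 libraries, 6 had a higher FPKM in each of the 3 cord-marked libraries than in any of the 17, namely Hoxb2, Hoxb3, Hoxb8, Hoxc10, Hoxd8, and Hoxd9. Over all 14087 genes that meet the same count rule, 6.3% did. Most posterior genes were too low in the 17 libraries to meet that rule and are described by their values alone. Hoxb13, which marks the tail end of the body axis, had 1082, 1251, and 919 counts in FOD-CT replicate 1, FOD-CCI-contra replicate 1, and FOD-CCI replicate 1. With 0 counts in all 17 others, its median CPM was at least 262-fold higher, taking 3 counts in the shallowest of the 17 as the floor. Hoxc12 had 331, 338, and 106 counts in the same order, at least 80.1-fold higher by the same rule. Hoxd13, a gene of digits and the genital region, had 24, 0, and 48 counts, and 0 in the 17.

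Several genes were present in both sets of libraries at different levels. Hoxc11 lay between 9.97 and 13.9 FPKM in the cord-marked libraries and at or below 1.57 FPKM in the others. Hoxd10 lay between 8.26 and 11 FPKM, and its median CPM was 26.9 times that of the 17. Hoxb8 was at 121, 95.6, and 22.6 FPKM in FOD-CT, FOD-CCI-contra, and FOD-CCI, a 13.6-fold difference of median CPM with no overlap. Hoxc10 was at 26, 26.4, and 28.3 FPKM, a 5.32-fold difference of median CPM, and again did not overlap with the 17. Not all members were higher. The median CPM of Hoxd1 was 0.566 times that of the 17, that of Hoxc8 was 0.615 times, and that of Hoxd3 was 0.202 times, with overlapping ranges of FPKM in each case. The sum of sensory neuron markers was also lower in these libraries, at 161 CPM in FOD-CCI-contra replicate 1, which had the lowest Hoxd1 level of all 20 at 2.09 FPKM. The part of either cell source in these differences was not tested.

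**Figure D3:**
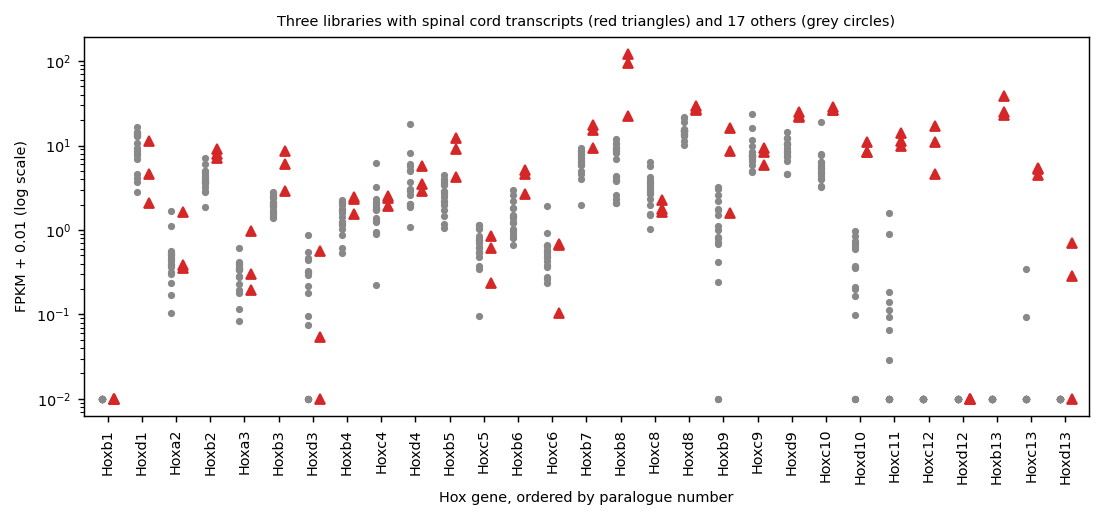
FPKM + 0.01 on a log axis for the Hox genes described by name, ordered by paralogue number; grey circles are the 17 libraries, red triangles the cord-marked libraries, and points at 0.01 are zeros. Triangles stand clear of the circles for Hoxb8, Hoxc10, Hoxd10, Hoxc11, Hoxc12, Hoxb13, and Hoxc13, and lie within them for Hoxc8.

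The 8 Hox genes outside the naming rule filled gaps in the Hoxa cluster. The gene described as Hox-A9 (LOC103692128) had a median of 13.3 FPKM in the 17 libraries, between 10.1 and 17.3, and the gene described as Hox-A10-like (LOC100912608) had 9.59 FPKM, between 6.99 and 16.2. The latter exceeded Hoxc10 in its median and was not higher in the cord-marked libraries, at 7.19 to 9.55 FPKM. The Hox-A13-like gene (LOC100910298) had 129 to 214 counts in the cord-marked libraries and 0 in the 17. Hoxd11, listed as a miscellaneous RNA, had 240 to 351 counts there, and 12 of the 17 had 0. The Hox-A11 gene (LOC100909443) had 194 to 228 counts in the cord-marked libraries. In the 17 it had a median of 11 counts and at most 58, with 0 counts in 7 of them. With all 38 genes the weighted mean paralogue number was 6.75 to 7.58 in the 17 libraries and 8.39 to 8.84 in the cord-marked libraries, so their order was kept and the gap between them was narrower. The share of groups 10 to 13 became 11.5% to 22.3% in the 17 and 27.1% to 42.8% in the cord-marked libraries. Evx1, a homeobox gene beside the Hoxa cluster, had 20, 30, and 30 counts in the cord-marked libraries and 0 in the 17.

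The response to injury was compared next. CCI against sham on the left side was tested with edgeR's quasi-likelihood test over all genes, and a gene was called when its Benjamini-Hochberg adjusted p did not exceed 0.1 and it differed by 1.2-fold or more. Of the 30 members, 19 passed the count filter and were tested. None was called in SOD-CCI against SOD-CT, where 0 of 14484 genes (0%) were called, and 2 had an unadjusted p below 0.05, against 13.8% of all genes. The median log2FC of the 19 was -0.49, beside -0.01 over all genes, and 13 were negative. Single values depended on the most muscle-rich libraries, SOD-CT replicate 1 and FOD-CT replicate 2. Without them Hoxc9 moved from -0.59 to 0.01 and Hoxc10 from -0.75 to -0.06. Hoxb8 moved the other way, from -0.72 to -0.97, as did Hoxd1, from -1.14 to -1.31. As RNA was taken from whole ganglia, fewer cells that express a gene and less RNA per cell cannot be told apart.

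Hoxd4 had the smallest p in this comparison. Its FPKM was 17.9, 3.72, 3.05, and 5.72 in SOD-CT and 2.03, 1.07, and 1.91 in SOD-CCI. All SOD-CCI libraries lay below all SOD-CT libraries, and the highest value came from the library richest in muscle transcripts. The log2FC was -2.13 with a standard error (SE) of 0.59, and edgeR gave an adjusted p of 0.266. Without SOD-CT replicate 1 and FOD-CT replicate 2, which held the most muscle transcripts, it was -1.30 with an SE of 0.4 and an adjusted p of 0.53. DESeq2 called Hoxd4 with a log2FC of -2.18 and an adjusted p of 0.0225, in a test that called 3.94% of all genes. Over all alternatives the adjusted p of Hoxd4 ran from 0.0225 to 0.647.

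Hoxd1 was at 7.71, 13.9, 12.8, and 13.4 FPKM in SOD-CT and 8.62, 2.83, and 4.58 FPKM in SOD-CCI. The groups overlap through SOD-CT replicate 1 and SOD-CCI replicate 1. Its log2FC was -1.14 with an SE of 0.51, and edgeR gave an adjusted p of 0.345. Hoxd8 had a log2FC of -0.49 with an SE of 0.32 and an edgeR adjusted p of 0.493.

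On the fish oil diet, no member was called in FOD-CCI against FOD-CT either, where 0% of all genes were called. Unadjusted, edgeR gave 3 members a p below 0.05, all lower in FOD-CCI, against 4.52% of all genes, and DESeq2 called no member and 0.0621% of all genes. Hoxb8 was at 121, 11.9, and 8.16 FPKM in FOD-CT and 22.6, 9.4, 2.08, and 2.09 FPKM in FOD-CCI. Both highest values were cord-marked libraries. Its log2FC was -2.38 with an SE of 0.94 and an edgeR adjusted p of 1, and without the cord-marked libraries it was -1.17 with an SE of 0.72. Hoxb6, a gene of the trunk, was at 5.06, 1.8, and 1.36 FPKM in FOD-CT and 2.66, 0.792, 0.658, and 0.956 FPKM in FOD-CCI. Its log2FC was -1.12 with an SE of 0.5, and -0.98 with an SE of 0.3 without the cord-marked libraries. Hoxa2, a hindbrain gene, had a log2FC of -1.50 with an SE of 0.59 and levels of 1.61, 0.522, and 1.11 FPKM in FOD-CT against 0.341 to 0.449 FPKM in FOD-CCI, which did not overlap. The value of 1.61 FPKM belonged to the cord-marked library. With the cord-marked libraries left out, the log2FC of Hoxa2 was -1.05 with an SE of 0.73 and an unadjusted edgeR p of 0.178. Without the cord-marked libraries Hoxd1 had the smallest p, with a log2FC of -1.50, an SE of 0.44, and an edgeR adjusted p of 0.328.

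**Figure D4:**
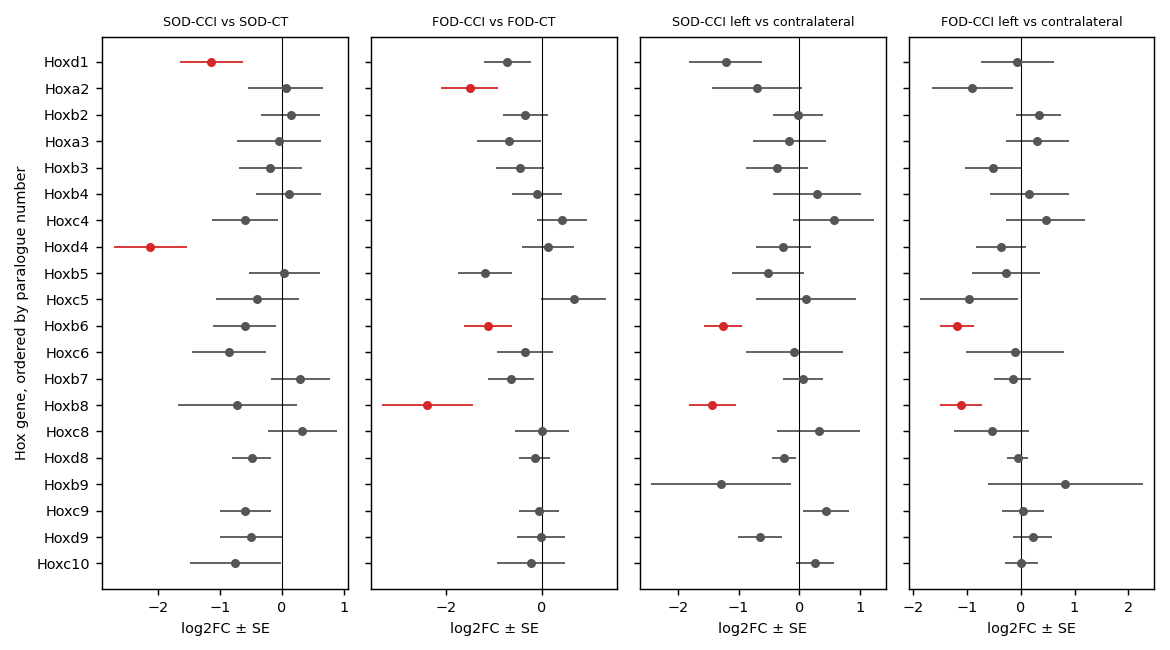
log2FC with SE from edgeR for each tested Hox gene in 4 comparisons (panels); red marks an unadjusted p below 0.05, and no gene was called after adjustment. Hoxb6 and Hoxb8 are red in both panels that compare the left with the contralateral side, with log2FC between -1.43 and -1.11.

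The diets were compared within each surgery. In FOD-CT against SOD-CT no member was called by edgeR or DESeq2, with 0% of all genes called, and 3 members had an unadjusted p below 0.05, all higher in FOD-CT, against 3.39% of all genes. Hoxb8 had a log2FC of 3.06 with an SE of 0.96 with all libraries and 0.84 with an SE of 0.67 without the cord-marked library. Hoxa2 was at 0.308, 0.226, 0.504, and 0.0935 FPKM in SOD-CT, each below the lowest FOD-CT value, and had a log2FC of 1.96 with an SE of 0.6 and an edgeR adjusted p of 0.965. Its counts were 8 to 51 in SOD-CT. Without the cord-marked libraries the log2FC of Hoxa2 was 1.55 with an SE of 0.68. Hoxb5 had a log2FC of 1.48 with an SE of 0.56, and 0.61 with an SE of 0.54 without the cord-marked library. This comparison and the preceding comparison share the FOD-CT libraries, so the opposite signs of Hoxa2 and Hoxb8 in them are not independent. In FOD-CCI against SOD-CCI no member was called by edgeR or DESeq2, with 0% of all genes called by edgeR and 0.0138% by DESeq2, and Hoxd4 alone had an unadjusted p below 0.05, against 5.4% of all genes. Its FPKM was 5.7, 4.99, 2.86, and 2.56 in FOD-CCI, above the 1.07 to 2.03 of SOD-CCI, with a log2FC of 1.27 and an SE of 0.57. The highest of these values, 5.7 FPKM, belonged to the cord-marked library. Without the cord-marked libraries the log2FC of Hoxd4 was 1.05 with an SE of 0.6 and an unadjusted edgeR p of 0.11. Hoxc10 and Hoxb8 followed with log2FC of 1.15 and 1.39 and SE of 0.74 and 0.97, and in both genes the highest value was the cord-marked library. Without it these were 0.11 with an SE of 0.49 for Hoxc10 and 0.38 with an SE of 0.65 for Hoxb8.

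The difference between the diets in the injury effect was tested as an interaction. No member was called by edgeR or DESeq2, where edgeR called 0% of all genes and DESeq2 0.0138%, and 1 member had an unadjusted p below 0.05, against 5.01% of all genes. This was Hoxd4, with an interaction log2FC of 2.26, an SE of 0.79, and an edgeR adjusted p of 0.894. Hoxa2 followed with -1.55 and an SE of 0.84, and Hoxb5 with -1.23 and an SE of 0.8. Without the cord-marked libraries these were 1.89 with an SE of 0.89 for Hoxd4, -1.10 with an SE of 0.97 for Hoxa2, and -0.62 with an SE of 0.76 for Hoxb5.

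The injured left side was compared with the right side of the same animal, which holds the rat constant. The 6 rats with both sides were fitted with the rat as a block, and 20 members passed the filter, Hoxb9 among them. No member was called in either diet by edgeR, where 0.131% of all genes were called in SOD-CCI rats and 0.0137% in FOD-CCI rats. Unadjusted, Hoxb6 and Hoxb8 had a p below 0.05 in both diets, each lower on the left, against 8.48% of all genes in SOD-CCI and 6.96% in FOD-CCI rats. The left libraries of these rats also enter the comparisons with sham. DESeq2 called both genes in SOD-CCI rats and Hoxb6 in FOD-CCI rats, where it called 3.2% and 1.81% of all genes.

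Hoxb6 was lower on the left in all 6 rats. In SOD-CCI rats it was at 1.01, 0.813, and 0.89 FPKM on the left and 2.6, 2.19, and 1.79 FPKM on the right. In FOD-CCI rats it was at 2.66, 0.792, and 0.658 FPKM on the left and 4.57, 2.99, and 1.21 FPKM on the right, the first pair being the cord-marked libraries. The sides do not overlap in SOD-CCI rats, and the SOD-CT values of 1.24 to 1.48 FPKM lie between them, above the left and below the right SOD-CCI values. The log2FC was -1.26 with an SE of 0.31 in SOD-CCI rats and -1.19 with an SE of 0.31 in FOD-CCI rats, with edgeR adjusted p of 0.252 and 0.522. Without the rat with cord-marked libraries, edgeR gave -1.26 with an SE of 0.3 and an adjusted p of 0.0763 in SOD-CCI rats, past the threshold, and -1.41 with an adjusted p of 0.186 in FOD-CCI rats. That fit called 3.14% of all genes in SOD-CCI and 0.914% in FOD-CCI rats.

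Hoxb8 was also lower on the left in all 6 rats. In SOD-CCI rats it was at 3.76, 2.59, and 3.93 FPKM on the left and 8.51, 10.6, and 8.52 FPKM on the right, with no overlap. In FOD-CCI rats it was at 22.6, 9.4, and 2.08 FPKM on the left and 95.6, 10.5, and 4.34 FPKM on the right. The second of these rats differed little between sides, with a left to right ratio of 0.892. The log2FC was -1.43 with an SE of 0.39 in SOD-CCI and -1.11 with an SE of 0.39 in FOD-CCI rats, with edgeR adjusted p of 0.31 and 0.623. Without the cord-marked rat the FOD-CCI value was -0.62 with an SE of 0.49 and an edgeR adjusted p of 0.658. The gene models of Hoxb6 and Hoxb8 each overlap that of Hoxb9 and not each other, so reads of either gene could be split with Hoxb9. Whether they were was not tested. Hoxa2 was the only other tested member that was lower on the left in 6 of 6 rats, so 3 of 20 were, against 2.92% of all genes tested, and no member was higher on the left in 6 of 6, against 5.09%.

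Hoxd1 depended on the cord-marked rat. It was at 8.62, 2.83, and 4.58 FPKM on the left of SOD-CCI rats and 16.5, 8.12, and 10.6 FPKM on the right, left to right ratios of 0.522, 0.349, and 0.434. In the unmarked FOD-CCI rats it was at 6.89 and 4.14 FPKM on the left and 14.2 and 9.29 FPKM on the right. In the cord-marked rat it was at 11.4 FPKM on the left and 2.09 FPKM on the right, the reverse order. With all rats, edgeR gave Hoxd1 a log2FC of -1.21 in SOD-CCI rats with an SE of 0.6 and an adjusted p of 0.637. Without that rat the SOD-CCI value was -1.21 with an SE of 0.24 and an adjusted p of 0.0366, past the threshold. In FOD-CCI rats it was then -1.12 with an SE of 0.29 and an adjusted p of 0.175. Summed sensory neuron markers were between 4292 and 7398 CPM in the 10 unmarked libraries of these rats, and 3058 and 161 CPM on the left and right of the cord-marked rat. Their part in the Hoxd1 level was not tested.

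**Figure D5:**
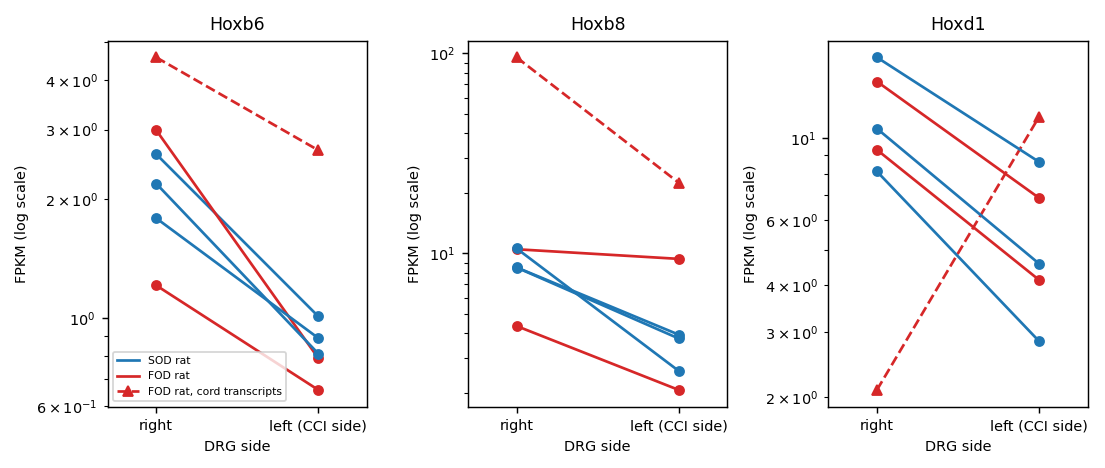
FPKM on a log axis of Hoxb6, Hoxb8, and Hoxd1 in the right and left (CCI side) DRG of each of 6 rats, joined by lines; blue lines are SOD-CCI rats, red lines FOD-CCI rats, and the dashed line the rat with cord-marked libraries. Hoxb6 and Hoxb8 fall from right to left in all 6 rats, and Hoxd1 falls in 5 and rises in the dashed rat.

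The side difference itself did not differ between diets past the threshold for any member with edgeR or DESeq2. No gene was called by edgeR (0%), and with all 6 rats no member had an unadjusted p below 0.05, against 2.91% of all genes. The members with the smallest p were Hoxd9, with a difference of log2FC of 0.86 and an SE of 0.51, Hoxd1, with 1.14 and an SE of 0.89, and Hoxb9, with 2.13 and an SE of 1.85. Without the cord-marked rat these were 0.89 with an SE of 0.6 for Hoxd9, 0.09 with an SE of 0.37 for Hoxd1, and 3.97 with an SE of 1.67 for Hoxb9, whose unadjusted edgeR p of 0.0396 had an adjusted p of 0.999. For Hoxb6, the log2FC of -1.26 and -1.19 stand beside SE of 0.31 each.

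Contralateral DRG were compared between diets in their own fit of 6 libraries. No member was called by edgeR, which called 0% of all genes, and 2 of the 19 tested had an unadjusted p below 0.05, both higher in FOD-CCI rats, against 9.51% of all genes. Hoxd4 was at 3.47, 6.11, and 8.24 FPKM in FOD-CCI and 1.85, 2.02, and 1.97 FPKM in SOD-CCI rats, with no overlap. Its log2FC was 1.60 with an SE of 0.43 and an edgeR adjusted p of 0.503, and DESeq2 called it with 1.61 and an adjusted p of 0.0368, in a test that called 1.49% of all genes. Without the cord-marked library the log2FC was 1.88 with an SE of 0.36 and an edgeR adjusted p of 0.136, where 0.12% of all genes were called and no member. Hoxc10 was at 26.4, 3.26, and 7.65 FPKM against 3.33, 5.35, and 4.03 FPKM, which overlap, and its log2FC of 1.53 with an SE of 0.67 rested on the cord-marked library. Hoxb8 had a log2FC of 1.96 with an SE of 0.94, and -0.30 without that library.

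Hox proteins bind DNA together with cofactors of the Pbx, Meis, and Pknox families. All 9 cofactor genes of the list were tested and none was called by edgeR in any comparison, where 0 to 2 of the 9 had an unadjusted p below 0.05. DESeq2 called Meis3 in SOD-CCI against SOD-CT and on the injured side of SOD-CCI rats, with adjusted p of 0.0205 and 0.019. Meis3 had the highest and Meis1 the lowest log2FC of the list after injury in both diets and on the injured side in both diets. The log2FC of Meis3 in SOD-CCI against SOD-CT was 1.67 with an SE of 0.4 and an edgeR adjusted p of 0.266, and that of Meis1 was -1.05 with an SE of 0.76. In FOD-CCI against FOD-CT these were 1.31 with an SE of 0.41 and -0.80 with an SE of 0.73. Of 17 Polycomb and trithorax genes, which keep Hox clusters silent or active, 16 were tested, and of 10 upstream genes of the axial pattern, such as the Cdx and retinoic acid genes, 6 were tested in the left and paired fits and 5 in the contralateral fit. None of them was called by edgeR, with at most 2 genes of the first list and 1 of the second at an unadjusted p below 0.05 in a comparison. DESeq2 called 1 gene of these lists, Cyp26b1, a retinoic acid degrading enzyme, on the injured side of FOD-CCI rats with a log2FC of -1.46 and an adjusted p of 0.0676. The median log2FC of the Polycomb and trithorax list was 0.26 in SOD-CCI against SOD-CT and -0.13 in FOD-CCI against FOD-CT, beside -0.01 and 0.01 over all genes. Cdx1 and Cdx2, which act at the posterior end of the embryo, had 0 counts in all 17 unmarked libraries.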

How the data were processed

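The data were deposited by the study's authors as 2 tables of 39747 genes and 20 libraries, and every column of values was assigned to a sample by its label. Per the labels and the study's methods, the authors purified poly-A RNA, used fastp for trimming, HISAT2 for alignment, and featureCounts 1.5.0-p3 for counting. The genome build and the use of strand are not given in the sources used here. The deposited counts are whole numbers, not normalized. The deposited FPKM values equal count per gene length and a library scale, which was 0.628 (SOD-CT replicate 1) to 1.13 times the summed counts, so FPKM values compare libraries on this scale and CPM values on summed counts.

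Members and lists were chosen with earlier results of these data known. Counts were analysed with R 4.3.3 and edgeR 4.0.16 (TMM, two-sided quasi-likelihood test), on genes that reached 10 counts in 90% or more of the libraries of a fit. The left fit held 14 libraries with a mean for each group, the paired fit 12 libraries with the rat as a block, and the contralateral fit 6 libraries. Left and right deviations from group means correlated in all 6 rats (0.13 to 0.42), which come from the same animal. FOD-CT and FOD-CCI libraries of like replicate number also deviated together (0.42, 0.23, and 0.18). The other pairings of groups by replicate number ran from -0.25 to 0.23, with both signs, and the labels name no batch. Both libraries of the FOD-CT and FOD-CCI pair at 0.42 are cord-marked, as are both sides of the rat with a left to right correlation of 0.38. The part of the spinal cord transcripts in these values was not tested. DESeq2 1.42.0, DESeq2 size factors, no count filter, fits of only the compared groups, and fits leaving out single libraries, cord-marked libraries, or the most muscle-rich libraries were alternatives, the last chosen after seeing the data. The scripts were tested on simulated data. Cord-marked libraries were compared with the rest without a test.

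Genes named with values were the member with the highest median FPKM of each cluster, members of paralogue groups 9 to 13 with a median of at least 0.5 FPKM, the 3 members with the smallest p in each comparison, called members, and members at 0 throughout. Other genes were named after their values were seen, and 1 member is counted but not reported here by name. Promoter sequences come from RefSeq (GRCr8), with 11 members matched by gene ID. P-values of the left and contralateral fits measure the spread between rats. Those of the paired fit measure how much the side difference within a rat varies from rat to rat. The 3 or 4 libraries per group limit the precision, and the part of depth was not tested.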

Additional observations from a re-analysis of the deposited data

Results flagged for a closer look

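Samples that stood far from the rest of their group by Dixon's test were looked for in the groups of 4, SOD-CT and FOD-CCI, over 11 named genes and 3 summaries of Hox level. Chance marks about 1 in 20 independent groups, and 9 of 28 were marked here. The 28 rest on the same SOD-CT and FOD-CCI libraries, and the summaries contain the named genes. They are therefore not independent, and their number cannot be set against that rate. All 9 belong to SOD-CT replicate 1 or FOD-CCI replicate 1.

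In FOD-CCI, replicate 1, a cord-marked library, was the high sample for Hoxb6 at 2.66 FPKM (the next was 0.956), for Hoxc10 at 28.3 FPKM (next 6.32), for the share of paralogue groups 10 to 13 at 39% (next 9.38%), and for summed Hox FPKM at 225 (next 82.9). Its spinal cord glia markers summed to 2359 CPM, and their part in these values was not tested.

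In SOD-CT, replicate 1, the library richest in muscle transcripts, was the high sample for Hoxc9 at 23.3 FPKM (next 8.41), for Hoxc10 at 19 FPKM (next 6.4), for the weighted mean paralogue number at 7.09 (next 6.36), for the share of groups 10 to 13 at 15.9% (next 7.33%), and for summed Hox FPKM at 130 (next 92.8). Its muscle markers summed to 85345 CPM, and their part in these values was not tested. The deposited FPKM scale of this library was 0.628 times its summed counts, the lowest of the 20, which raises all its FPKM values relative to CPM.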

How the results depend on the processing

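The number of Hox genes called was 0 in each of the 9 comparisons with edgeR on all libraries, and 150 of the 156 recomputed counts and profile values kept their side of the threshold or moved by less than the spread. DESeq2 called 1 Hox gene in SOD-CCI vs SOD-CT (Hoxd4), 2 in SOD-CCI left vs contralateral, 1 in FOD-CCI left vs contralateral, and 1 in contralateral FOD-CCI vs SOD-CCI. Over all genes it called 571, 466, 264, and 202 in these, where edgeR called 0, 19, 2, and 0. Without the spinal cord libraries, 2 Hox genes (Hoxd1 and Hoxb6) were called in SOD-CCI left vs contralateral, and leaving out single rats gave 0 to 2, the 2 being the fit without the cord-marked FOD-CCI replicate 1; the fit then called 471 genes. The cause was not tested. With the replicate number as a block, 0 Hox genes were called in the left and contralateral comparisons, and without the rat block 0 were called in the paired ones; the block changed no call of a Hox gene. Without the most muscle-rich libraries, an alternative chosen after seeing the data, 0 Hox genes were called in the left comparisons.

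Direction turned in 3 of 443 recomputed log2FC of single genes. Hoxb8 in contralateral FOD-CCI vs SOD-CCI was -0.30 without FOD-CCI-contra replicate 1, which is also the fit without the spinal cord libraries, with a range of -0.30 to 2.49 over the fits without single libraries. Hoxb9 in the side difference was -0.22 without the rat block. The median weighted mean paralogue number over 20 libraries was 6.53, and 6.07 with CPM in place of FPKM. The median share of groups 10 to 13 was 7.53%, and 14.9% with the 8 Hox genes outside the naming rule, an alternative chosen after seeing the data. Low counts, among them those of Hoxd3 and most posterior genes, left 10 or 11 members untested in each fit.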
